A study of Mus musculus with 12 samples.

Results

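Organoids from the antrum, the outlet end of the mouse stomach, were compared after Wnt inhibition and in Wnt-rich medium. The comparison used 6 of the 12 libraries of the series, 3 inhibited and 3 vehicle, chosen by their labels for region and treatment and paired by the line number in their titles (8025, 8026 and 8028). All were wild-type (WT) epithelial cultures, grown in Matrigel from isolated glands, and the lines are described as independent. Vehicle cultures, whose treatment label reads none, stayed with DMSO in growth medium holding 10% fetal bovine serum and 50% L-WRN conditioned medium, which supplies Wnt, R-spondin and Noggin. Inhibited cultures received the tankyrase inhibitor XAV939 from day 4 after passage, at a labelled 1 mM, for 24 h. Added Wnt and R-spondin were withdrawn from them, and Noggin-1, a blocker of bone morphogenetic proteins, was added at 100 ng/mL. The compound and the change of medium cannot be told apart, and the serum of the treated medium is not stated. The other 6 libraries hold the same design in organoids of the corpus, the body of the stomach, grown with 20% serum, and entered the fit. Each line gave 1 library per treatment, so the tests weigh a change against the spread between lines in their response. In such bulk RNA, fewer cells of a type and less RNA per cell cannot be told apart.

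Without Wnt, a complex of Axin, APC and the kinase GSK3 marks beta-catenin for destruction. Wnt binding to Frizzled and LRP receptors stops this, and beta-catenin then acts with TCF factors on target genes, several of which encode brakes on the pathway. Tankyrases mark Axin for degradation, so their inhibition stabilises the destruction complex. In antral glands, Wnt and R-spondin signals are strongest at the base, where stem cells and mucous gland cells lie, and pit cells that line the surface with mucus lie farthest from them. The series asks how Wnt governs differentiation and retinoid metabolism genes in the stomach.

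The antral libraries held 18858022 to 29596913 counts. Levels are given in CPM, counts relative to the library's total as scaled by the trimmed mean of M values (TMM), and 3 counts, the limit that a count of 0 allows, correspond to 0.0989 to 0.177 CPM. A principal component analysis used the 2000 genes that varied most over the 6 libraries. Its first component held 66.6% of the variance of these genes and separated vehicle (35.14 to 42.05) from inhibited libraries (-39.21 to -35.29). The second, with 12.5%, set vehicle line 8026 apart at -31.57. A group of 4 rRNA-like genes (Lars2, Gm26917, AY036118 and CT010467.1) took 17.2% and 6.87% of counts in vehicle lines 8025 and 8028, and 0.92% to 3.45% in the other antral libraries. Leaving these genes out before scaling gave 3329 higher and 3261 lower calls. Calls had an adjusted p below 0.05 in edgeR's quasi-likelihood test with the line as a block.

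Of 16152 genes tested, 3333 were called higher (20.6%) and 3261 lower (20.2%) after inhibition, and 6580 of these moved the same way in all 3 lines. Counts of list members called below are to be read against the shares of 20.6% and 20.2%. Most changes were small. Of the calls 5079 were under 2-fold, while 683 rose and 832 fell at least 2-fold, and 206 rose and 257 fell at least 4-fold. Genes called at least 2-fold higher took 2.63% to 3.12% of the counts of genes tested in vehicle and 7.76% to 8.17% after inhibition. Those called at least 2-fold lower went from 1.43% to 1.63% down to 0.484% to 0.508%. The direction of both shifts follows from the choice of the genes in these same libraries, and only their size is described. The line-wise log2 changes of 11031 genes with at least 5 CPM correlated at r = 0.889 to 0.907 between lines, across genes that are not independent and within libraries that share a vehicle or inhibited medium. Above 100 CPM, 938 of 2114 genes were called higher and 282 lower. Below 1 CPM, 154 of 2680 were higher and 320 lower, with a median standard error of 0.429 against 0.0612 above 100 CPM. Of 1463 processed pseudogenes 25 rose and 246 fell, against 3151 and 2822 of 12971 protein-coding genes. Reads of a pseudogene and its parent gene cannot be fully told apart.

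**Figure D1:**
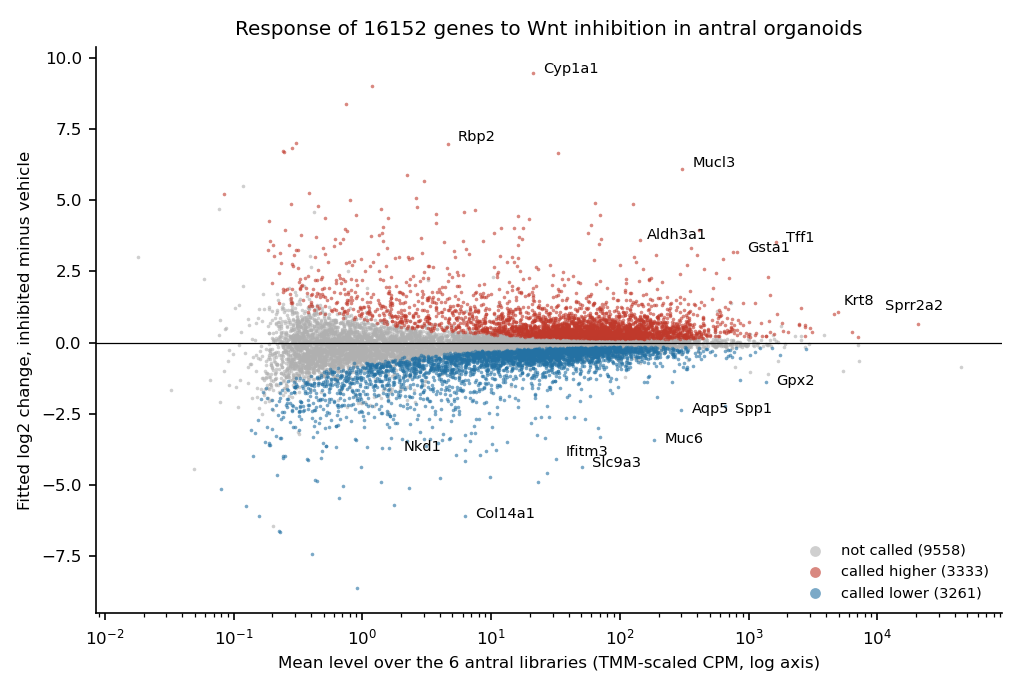
Fitted log2 change (inhibited minus vehicle) against mean level over the 6 antral libraries in TMM-scaled CPM on a log axis. Each point is a gene, red for the 3333 called higher, blue for the 3261 called lower and grey for the rest. Named genes at high levels, such as Krt8 and Tff1, lie above 0, and Muc6, Spp1 and Gpx2 below it.

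Among the 14 deepest falls of genes with at least 5 CPM were 3 stem cell genes (Lgr5, Smoc2 and Tnfrsf19), a collagen, an ion exchanger and a glycan enzyme of gland mucus. In the order of lines 8025, 8026 and 8028, which holds throughout, Col14a1, a collagen gene, stood at 8.26, 4.28 and 24.2 CPM in vehicle and at 0.106, 0.0746 and 0.352 CPM after inhibition. Its log2 change was -6.07 ± 0.26 (SE; adjusted p 2.3e-07), and no inhibited library reached the lowest vehicle library. Slc9a3, which encodes an apical sodium-proton exchanger, went from 69.7, 78 and 143 to 3.56, 4.85 and 5.36 CPM. Its vehicle level was highest in line 8028, and it fell by 4.36 ± 0.20 on the log2 scale. Timp3, an inhibitor of matrix proteases, measured 10.2, 17.2 and 8.52 CPM in vehicle and 0.669, 0.821 and 0.508 CPM after inhibition. A4gnt, whose enzyme adds the terminal sugar of deep gland mucin, had 30.3, 19.4 and 23.3 CPM in vehicle and close to 2 CPM in each inhibited library (2.11, 2.13 and 2.15). The secreted factor gene Angptl2 fell by 3.77 ± 0.13, Sbspon, which encodes a secreted matrix protein, by 3.94 ± 0.29. The interferon-induced membrane gene Ifitm3 fell by 4.08 ± 0.18. Erich3 fell by 3.76 ± 0.15 and Fam222a by 3.56 ± 0.21. Mgam2-ps, a pseudogene, fell by 3.94 ± 0.26, a call lost without the line block and without both the line block and vehicle lines 8025 and 8028 (adjusted p up to 0.16). The other fall among the 14 largest was Ppp2r2b, a phosphatase subunit gene, at -3.80 ± 0.18.

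The 14 largest rises held surface mucus genes (Muc5ac, Mucl3, Gkn2) beside detoxifying genes (Cyp1a1, Ahrr, Cyp2c55, Cyp2c65, Ugt1a7c). Cyp1a1 and Rbp2 were the 2 genes that lay under 0.5 CPM in all 3 vehicle libraries and above 5 CPM in all 3 inhibited ones. No gene (0) did the reverse. Rbp2, which binds retinol inside absorptive cells, had 0.059, 0.132 and 0 CPM in vehicle and 7.89, 10.5 and 9.11 CPM after inhibition. Aqp3, a water and glycerol channel of surface epithelia, measured 0.295, 0.264 and 1.08 CPM in vehicle and 17.6, 15.9 and 9.93 CPM after inhibition. It rose by 4.66 ± 0.48 on the log2 scale, with the smallest inhibited level and the largest vehicle level both in line 8028. Dmbt1, a secreted protein of mucosal defence, rose by 3.97 ± 0.45 (adjusted p 0.0025) from 26.4, 26.7 and 134 to 517, 673 and 1089 CPM, and line 8028 was the highest on both sides. Adamts15, a secreted protease, went from 1.95, 1.98 and 2.25 to 29.1, 33 and 37.3 CPM, with 1 tight cluster of libraries on each side. Acta1, the skeletal muscle actin gene, went from 2.06, 2.24 and 0.96 to 28.5, 36.3 and 19.5 CPM. Gsdmc2, of the gasdermin family, rose by 4.04 ± 0.33, and Clca1, a goblet cell secretory gene, by 4.87 ± 0.23. Some of the genes named above lie on GRCm38 as follows, all protein-coding. Slc9a3 lies on chromosome 13 from 74121457 to 74169442 and Col14a1 on chromosome 15 from 55307750 to 55520803. A4gnt lies on chromosome 9 from 99612502 to 99622367 and Aqp3 on chromosome 4 from 41092722 to 41098183. Adamts15 lies on chromosome 9 from 30899155 to 30922452.

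Ranked by CPM rather than by fold, the 8 largest gains held keratins (Krt8, Krt19), the pit peptide Tff1 and glutathione transferases (Gsto1, Gsta4). Sprr2a2, a small proline-rich protein of epithelial barriers, gained most, from 19640, 14050 and 14870 to 30100, 24680 and 21230 CPM, although its log2 change was only 0.65 ± 0.08. Its copies Sprr2a1 and Sprr2a3 are near-identical, so reads may be split among them. Lgals4, a galectin of the gut epithelium, went from 635, 799 and 677 to 2152, 2325 and 2211 CPM and rose by 1.67 ± 0.093. Gsto1, a glutathione transferase, went from 1564, 1362 and 1690 to 4054, 3362 and 3360 CPM. Clu, the secreted chaperone clusterin, changed by 0.38 ± 0.065 (adjusted p 0.0012), from 6651, 5611 and 4267 to 8417, 6870 and 6059 CPM. It was higher in each line, but inhibited line 8028 lay below vehicle line 8025. Without the line block its adjusted p was 0.2, and without both the line block and vehicle lines 8025 and 8028 it was 0.43. The losses included Gpx2, the epithelial glutathione peroxidase and a known Wnt and NRF2 target (2047, 1933 and 1988 to 729, 812 and 733 CPM), and Spp1, which encodes osteopontin (1113, 921 and 1214 to 248, 206 and 239.9 CPM). They fell by 1.39 ± 0.13 and 2.22 ± 0.066 on the log2 scale, with no overlap between the groups.

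**Figure D2:**
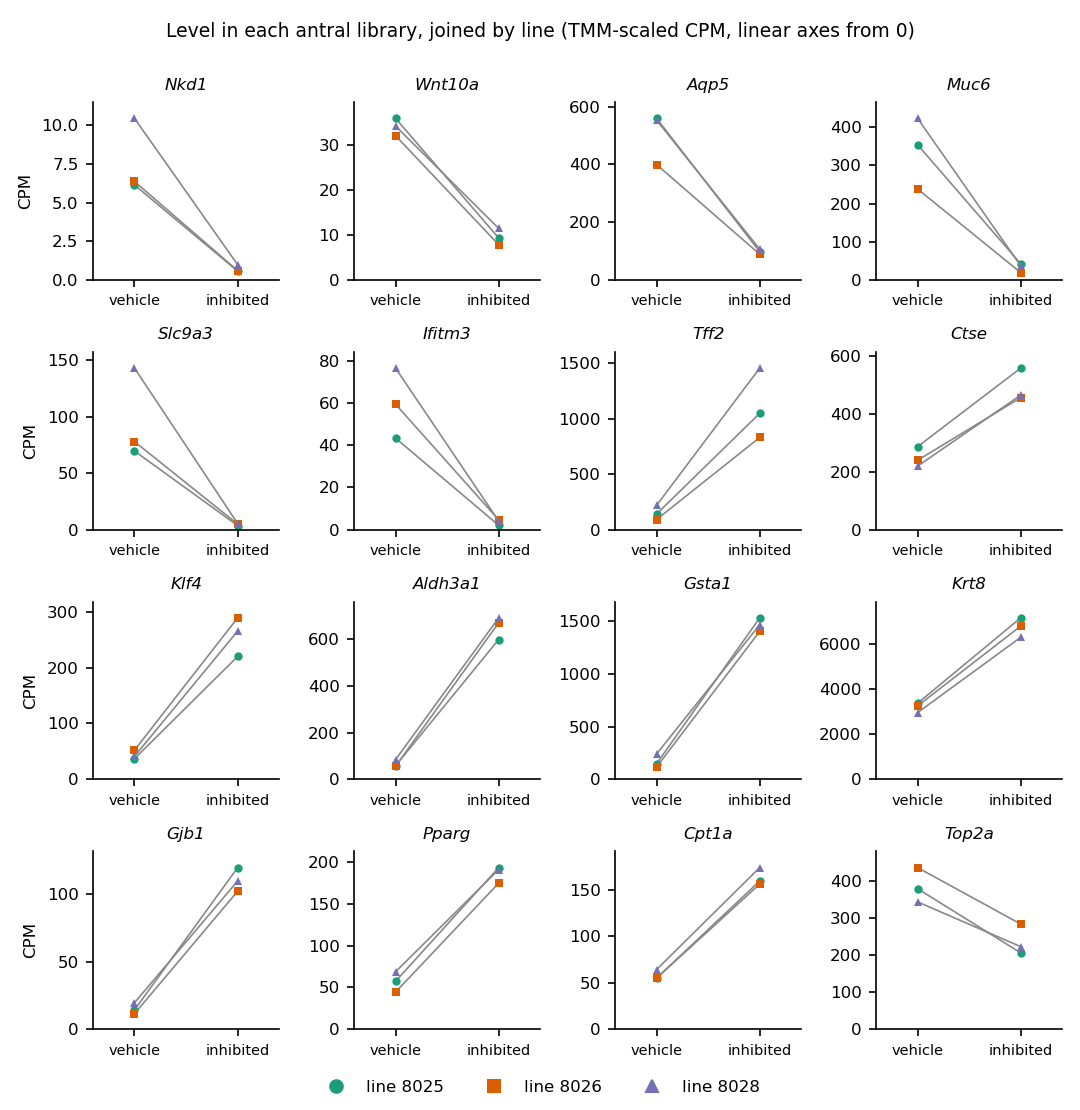
Level of 16 genes in each of the 6 antral libraries (TMM-scaled CPM, linear axes from 0), joined by line, vehicle on the left and inhibited on the right. In every panel the 3 lines move the same way, and in each the groups do not overlap. Top2a runs from 345 CPM in the lowest vehicle to 284 CPM in the highest inhibited library.

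Wnt target genes fell as a group. Of 20 targets and feedback genes tested, 16 fell and 2 rose, with a median log2 change of -1.55 against -0.0421 over all genes. Tnfrsf19, a receptor of gland base cells, went from 17.7, 13.7 and 25.5 to 0.634, 0.56 and 0.938 CPM, with the highest level of both groups in line 8028. Nkd1, a brake on the pathway that binds Dishevelled, measured 6.13, 6.36 and 10.4 CPM in vehicle and 0.563, 0.597 and 0.978 CPM after inhibition, a fall of 3.42 ± 0.27 (adjusted p 1.0e-05). Sp5, a transcription factor induced by beta-catenin, went from 45, 41.2 and 39.2 to 7.15, 6.45 and 6.8 CPM, and its 3 inhibited libraries lay within 1 CPM of each other. Rnf43 and Znrf3, the ubiquitin ligases that remove Frizzled receptors, fell by 1.24 ± 0.13 and 1.19 ± 0.17. Ascl2, a stem cell transcription factor, had 44.4, 49.8 and 39.9 CPM in vehicle and 7.96, 11.8 and 9.11 CPM after inhibition. Sox9, a progenitor factor, had 154, 139.5 and 114 and 36.4, 42.7 and 38.8 CPM. The 2 members that rose were Cdx2 and Zbtb7c. Cdx2, an intestinal master factor, changed by 0.75 ± 0.10, a call lost without the line block and without both the line block and vehicle lines 8025 and 8028 (adjusted p up to 0.66). Zbtb7c, a zinc finger gene, rose by 2.57 ± 0.18. The summed level of the list was 1190 to 1230 CPM in vehicle and 567 to 604 CPM after inhibition.

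The promoters of 3 of these genes are shown because Tnfrsf19, Nkd1 and Sp5 are called targets that fell together and differ in whether the window holds a TCF motif. Each runs from 250 bases before to 50 after a RefSeq transcription start on GRCm38.p6, 5′ to 3′ on the gene's strand, and capitals mark a motif match. The letters searched were CTTTGAA and CTTTGAT on both strands, which also read TTCAAAG and ATCAAAG. Tnfrsf19 (chr14:61037938-61038237, minus strand) has 1 match 202 bases before the start, Sp5 (chr2:70474673-70474972, plus strand) has 1 at 104 bases before it, and Nkd1 (chr8:88527383-88527682, plus strand) has none. Tnfrsf19 has 2 start sites, and its window was chosen for holding the most matches. Sp5 and Nkd1 have 1 start site each.
Tnfrsf19: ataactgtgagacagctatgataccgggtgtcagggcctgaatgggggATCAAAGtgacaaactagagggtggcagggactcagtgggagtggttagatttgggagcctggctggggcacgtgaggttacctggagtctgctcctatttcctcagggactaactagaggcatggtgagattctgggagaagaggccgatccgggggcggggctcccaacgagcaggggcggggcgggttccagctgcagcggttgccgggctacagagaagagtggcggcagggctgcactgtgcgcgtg
Sp5: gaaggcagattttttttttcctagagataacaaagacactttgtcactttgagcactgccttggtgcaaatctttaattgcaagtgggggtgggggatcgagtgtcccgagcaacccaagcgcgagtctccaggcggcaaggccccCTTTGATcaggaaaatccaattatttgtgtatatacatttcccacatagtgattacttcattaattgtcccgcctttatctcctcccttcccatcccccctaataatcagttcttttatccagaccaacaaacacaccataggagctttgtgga
Nkd1: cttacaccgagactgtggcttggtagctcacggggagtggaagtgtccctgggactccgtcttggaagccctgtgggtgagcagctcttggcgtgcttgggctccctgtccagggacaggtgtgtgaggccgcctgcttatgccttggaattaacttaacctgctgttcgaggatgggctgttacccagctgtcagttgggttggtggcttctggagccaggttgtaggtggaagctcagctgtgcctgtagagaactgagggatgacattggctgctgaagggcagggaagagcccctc
Across all 32851 RefSeq windows, 8.65% hold a match. By gene, 7.28% of the 10801 tested genes with a window hold one, 12% of 569 genes called at least 2-fold lower and 8.09% of 470 called at least 2-fold higher. Of the 16 targets that fell, 10 had a window and 2 of these a match. These shares are descriptions of letters in a window, and no binding was measured.

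The receptors and ligands moved unevenly. Of 16 receptors and coreceptors tested 2 rose and 6 fell (12.5% and 37.5%). Fzd5, a Frizzled receptor, measured 44.6, 42 and 47.7 CPM in vehicle and 93.6, 103 and 102 CPM after inhibition and rose by 1.15 ± 0.074. Lgr4, the R-spondin receptor related to Lgr5, also rose, from 107, 113 and 128 to 172, 196 and 208 CPM. Fzd2 fell by 2.10 ± 0.22 and Ror2, a receptor for noncanonical Wnt, by 1.63 ± 0.20. The coreceptor gene Lrp5 changed by 0.079 ± 0.059 (adjusted p 0.31). Of 12 ligand and secretion genes 3 rose and 4 fell. The ligand genes Wnt10a and Wnt6 fell by 1.85 ± 0.14 and 3.13 ± 0.31. Wnt10a went from 35.9, 32 and 34.1 to 9.29, 7.8 and 11.4 CPM. Wnt4 and Wnt11 rose by 1.62 ± 0.24 and 2.52 ± 0.33, to levels of 5.77, 5.3 and 5 and of 2.5, 2.39 and 1.99 CPM. In the destruction complex and its nuclear partners 2 of 16 genes rose and 3 fell (12.5% and 18.8%). The rises numbered 1 without line 8025 and 7 with only the 6 antral libraries, and without both the line block and vehicle lines 8025 and 8028 1 rose and 0 fell. Tcf7l2, the main TCF factor of gut epithelium, rose by 0.80 ± 0.079, from 22.2, 19.9 and 21.5 to 37.6, 37.7 and 35 CPM. The scaffold gene Apc changed by 0.10 ± 0.058 (adjusted p 0.2, although it passed with only the 6 antral libraries), and Tnks, which encodes 1 of the tankyrases that XAV939 inhibits, by 0.012 ± 0.056 (adjusted p 0.89), a value whose sign turned under 3 alternatives. Tnks2, which encodes the other, changed by -0.24 ± 0.056, a call lost without line 8028, and also without both the line block and vehicle lines 8025 and 8028 (adjusted p up to 0.13).

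**Figure D3:**
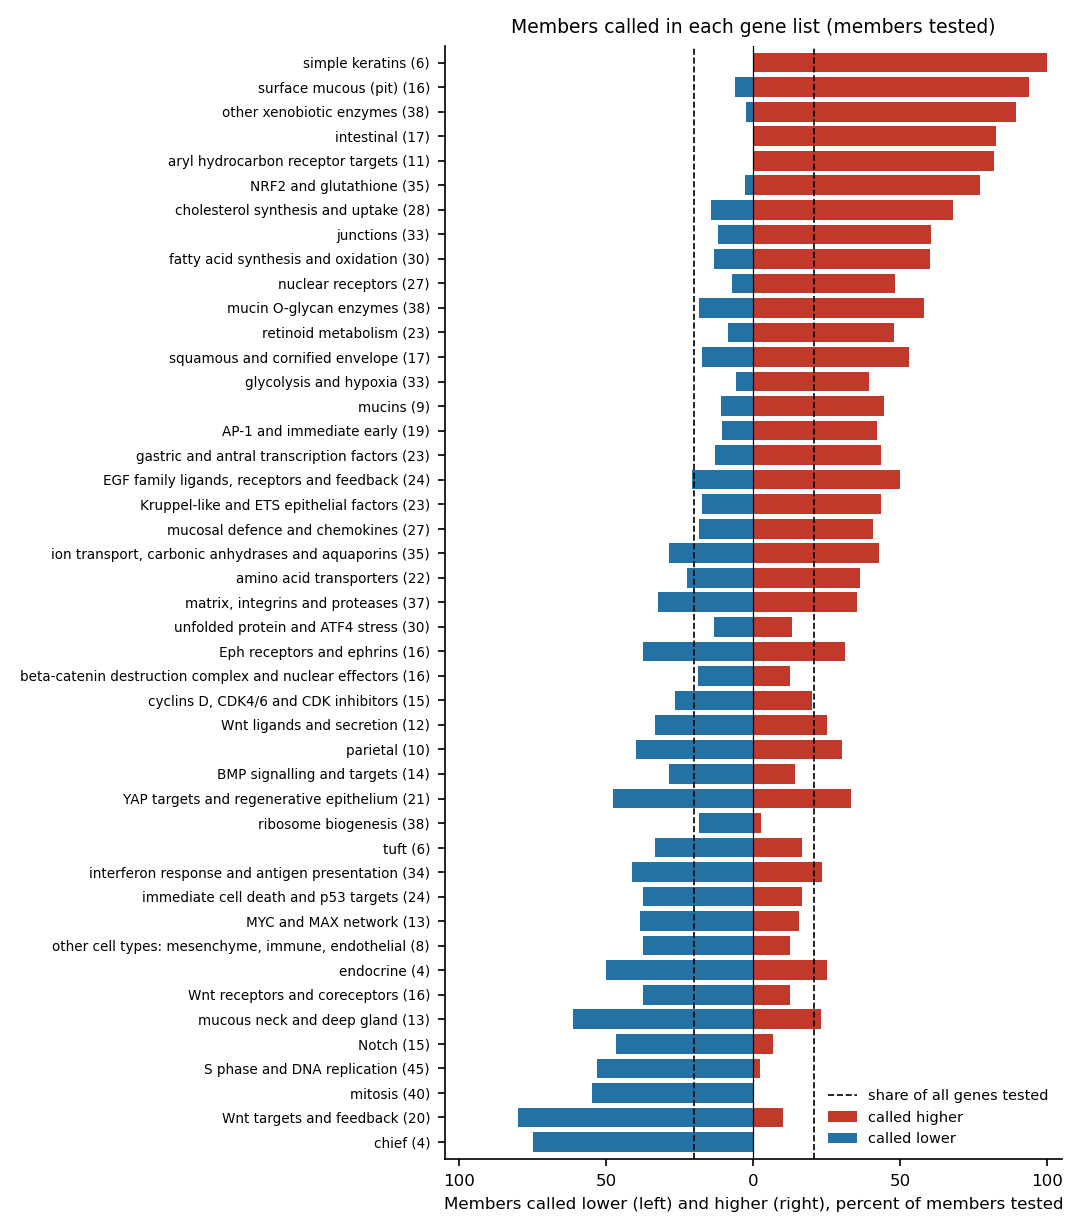
Share of the tested members of each of 45 gene lists called lower (blue, left) and higher (red, right), with the number tested in brackets; dashed lines mark the 20.2% and 20.6% over all genes. All 6 simple keratins rose, and 16 of 20 Wnt targets fell.

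Surface pit cell genes rose almost throughout. Of 16 tested 15 rose and 1 fell, with a median log2 change of 2.78, and 15 rose without each line in turn and without the block. Tff2, a trefoil peptide secreted with mucus by pit and neck cells, had 140.5, 90.7 and 218 CPM in vehicle and 1049, 831 and 1457 CPM after inhibition (log2 change 2.94 ± 0.10, adjusted p 9.4e-08). The line with the most in vehicle, 8028, also had the most after inhibition. Gkn2, a gastrokine of the surface mucus, rose by 4.89 ± 0.68 from 1.53, 3.49 and 6.34 to 113, 198 and 60.1 CPM, with the smallest inhibited level in line 8028. Muc5ac had the same order of lines after inhibition (60.8, 103 and 32.6 CPM). Psca, a surface antigen of pit cells, went from 32.1, 20.1 and 25.6 to 216, 190.2 and 119 CPM. Ctse, the pit cell protease cathepsin E, and Anxa10, an annexin of gastric epithelium, rose by 0.99 ± 0.055 and 1.25 ± 0.065, each with all inhibited libraries above all vehicle ones. The member that fell was Gkn3, a gastrokine that marks gland rather than surface mucous cells, at 1394, 881 and 1408 CPM in vehicle and 586, 384 and 488 CPM after inhibition. The summed pit list was 2430 to 3070 CPM in vehicle and 8070 to 8720 CPM after inhibition.

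Mucous gland genes moved both ways. Of 13 mucous neck and deep gland genes 8 fell and 3 rose, and the 3 were Dmbt1, Tff2 and Galnt6, of which Tff2 also stands in the pit list. The summed level of the list overlapped between the groups, at 3300, 2320 and 3600 CPM in vehicle and 2860, 2590 and 3780 CPM after inhibition. Aqp5, a water channel of antral gland base cells, measured 559.8, 399.8 and 554 CPM in vehicle and 97.5, 88.8 and 106 CPM after inhibition and fell by 2.36 ± 0.08 (adjusted p 7.7e-08). Muc6, the gland mucin, fell by 3.41 ± 0.31, and its level after inhibition (42, 19.1 and 36.6 CPM) was lowest in line 8026, as in vehicle. Of 4 chief cell genes tested 3 fell, with log2 changes down to -4.73. The member at -4.73 is a stem cell gene already named above among the deepest falls. The others that fell were Cblif and Pgc. The chief cell marker Pga5, which did not pass the filter on low counts, went the other way. It had 1, 2 and 3 counts in vehicle and 8, 10 and 5 after inhibition. Cblif, which encodes gastric intrinsic factor, had 49.8, 32.9 and 61.5 CPM in vehicle and 5.17, 6.38 and 2.11 CPM after inhibition, and with only the 6 antral libraries its adjusted p was 0.053. Pgc, a pepsinogen, changed by -1.83 ± 0.43, a call lost without line 8025 and in 3 other alternatives (adjusted p up to 0.11). Lipf was at 0 counts in all 6 libraries, as was the parietal pump gene Atp4b. Gastrin (Gast) and somatostatin (Sst) stood at 0 to 4 counts a library. Of 10 parietal genes 3 rose and 4 fell, 2 without the block, of 4 endocrine genes 1 rose and 2 fell, and of 6 tuft genes 1 rose and 2 fell. Without the block 0 rose and 1 fell in the endocrine list, and without line 8026 0 rose. Without the block or any 1 line 1 tuft gene fell. Avil was the tuft gene that rose. The summed tuft level was 180 to 221 CPM in vehicle and 278 to 323 CPM after inhibition, without overlap. Dclk1, a tuft and progenitor cell kinase, fell by 3.52 ± 0.24, from 6.49, 5.24 and 9.73 to 0.599, 0.56 and 0.665 CPM. Trpm5, another tuft marker, did not pass, at -0.72 (adjusted p 0.053). Pou2f3, also a tuft marker, did not pass the filter on low counts. It had 4, 6 and 2 counts in vehicle and 4, 2 and 3 after inhibition. All 3 markers lay far below the summed tuft level, which other members carried. Among endocrine genes, Insm1, a progenitor factor, fell by 1.79 ± 0.29, and Chgb rose by 0.98 (adjusted p 0.0072). The Chgb call was lost in 4 alternatives, among them without the block and without line 8026. Chga changed by -0.032 (adjusted p 0.97).

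Enzymes that build sugar chains on mucins rose more often than they fell. Of 38 O-glycan enzymes tested 22 rose (57.9%) and 7 fell (18.4%, below the 20.2% of all genes). The falls numbered 3, 4 and 6 without lines 8025, 8026 and 8028. B3galt5, which builds type 1 chains, rose by 5.09 ± 0.78 from 0.177, 0.0659 and 0.209 to 5.6, 5 and 4.5 CPM. Fut4, a fucosyltransferase, went from 1.83, 2.14 and 2.71 to 9.29, 7.72 and 10.1 CPM and B4galnt3, which makes the LacdiNAc unit of surface mucins, from 5.66, 6.26 and 8.31 to 25.9, 22.5 and 26.5 CPM. Abo, the blood group transferase, rose by 1.54 ± 0.17. The falls included A4gnt, above, and Fut9, a fucosyltransferase of Lewis x structures, which fell by 2.20 ± 0.23 from 3.66, 3.1 and 2.88 to 0.951, 0.821 and 0.352 CPM. Among 9 mucin genes 4 rose. Muc1, the membrane mucin, had 472, 436 and 477 CPM in vehicle and 743, 699 and 757 CPM after inhibition, and its log2 change was 0.67 ± 0.078.

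All 6 keratins listed as simple epithelial were called higher, also in each of the 16 alternatives. Krt23, a keratin counted in the squamous list, was called lower, at -0.28 (adjusted p 0.0034). Its change was -0.18 without both the line block and vehicle lines 8025 and 8028. Krt8 went from 3371, 3253 and 2957 to 7158, 6795 and 6296 CPM and its partner Krt19 from 3492, 3115 and 2616 to 6620, 6277 and 5650 CPM. In each line both were higher, with log2 changes of 1.08 ± 0.065 and 1.01 ± 0.068. Of 17 squamous and cornified envelope genes 9 rose and 3 fell, 1 without line 8025 or line 8026. Sprr1a, a cross-linked envelope protein, rose by 2.42 ± 0.18 from 144, 59.9 and 84.8 to 629, 404 and 440.4 CPM, and Ivl, involucrin, from 4.42, 3.2 and 2.46 to 26.4, 13.2 and 18.1 CPM. Krt13, a keratin of stratified epithelium, had 2, 1.88 and 1.5 CPM in vehicle and 6.65, 6.57 and 5.28 CPM after inhibition.

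Intestinal genes were called higher in 14 of 17 cases and lower in 0, with a median log2 change of 1.42. Without the line block 9 were higher, and without it and without vehicle lines 8025 and 8028, 7. Tff3, the goblet cell trefoil peptide, went from 0.531, 1.68 and 0.626 to 7.25, 17.6 and 8.45 CPM, highest in line 8026 on both sides. Of 23 gastric and antral transcription factors 10 rose and 3 fell, with 7, 8 and 6 higher and 1, 1 and 3 lower without lines 8025, 8026 and 8028, and 6 higher and 2 lower without the block. Their median was 0.119, or 0.103 with Irx2, at 0 in vehicle and 3 counts after inhibition, set to no change. Hnf4a, a master factor of gut epithelium, rose by 0.72 ± 0.05 from 156, 162 and 144 to 249.5, 267 and 244 CPM. Onecut2, a factor of antrum and duodenum, rose by 1.43 ± 0.12. Pdx1, the antral identity factor, changed by 0.54 ± 0.067 from 29.8, 30.8 and 32.8 to 43.5, 44.7 and 47.9 CPM. Its call was lost without both the line block and vehicle lines 8025 and 8028 (adjusted p 0.13). Gata5, a foregut factor, fell by 0.47 ± 0.069. Of 23 Kruppel-like and ETS factors 10 rose and 4 fell. Klf4, a factor of postmitotic surface epithelium, rose by 2.57 ± 0.094 (adjusted p 1.6e-07), from 37, 52.2 and 41.2 to 219.7, 289 and 265 CPM, and no other member of its list moved as far. Elf4 and Klf6 rose by 0.74 ± 0.066 and 0.68 ± 0.062, while Spdef, a factor of secretory gland cells, fell by 0.65 ± 0.08.

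Targets of the aryl hydrocarbon receptor, a sensor of foreign and dietary aromatic compounds, had the highest median of the 45 lists after the pit genes. Of 11 genes tested 9 rose and 0 fell, with a median log2 change of 2.74. The 2 that did not pass were the receptor gene Ahr, at 0.16 ± 0.066 (adjusted p 0.086), and its partner Arnt, at 0.14 ± 0.073 (adjusted p 0.14). Both passed as higher with only the 6 antral libraries. Cyp1a1, the P450 enzyme most used as a readout of this receptor, went from 0, 0.033 and 0.125 to 32.8, 50.2 and 42.6 CPM. Aldh3a1, an aldehyde dehydrogenase, had 58.1, 55.9 and 84.3 CPM in vehicle and 598, 670.3 and 691 CPM after inhibition, a rise of 3.33 ± 0.13. Ahrr, the receptor's repressor, went from 1.42, 2.24 and 1.88 to 26.8, 44.4 and 40.7 CPM and rose by 4.33 ± 0.27 (adjusted p 1.9e-05). Ugt1a6b, a glucuronosyltransferase, rose by 3.66 ± 0.37, but genes of the Ugt1a cluster share exons, so their reads may be split.

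The promoters of Ahrr, which holds the receptor's motif in this window, and of Cyp1a1, which holds none in it, are given in the same way. The letters searched were TNGCGTG and, on the other strand, CACGCNA. Ahrr lies at chr13:74292282-74292581 (minus strand) with the match 29 bases before the start, and Cyp1a1 at chr9:57697363-57697662 (plus strand).
Ahrr: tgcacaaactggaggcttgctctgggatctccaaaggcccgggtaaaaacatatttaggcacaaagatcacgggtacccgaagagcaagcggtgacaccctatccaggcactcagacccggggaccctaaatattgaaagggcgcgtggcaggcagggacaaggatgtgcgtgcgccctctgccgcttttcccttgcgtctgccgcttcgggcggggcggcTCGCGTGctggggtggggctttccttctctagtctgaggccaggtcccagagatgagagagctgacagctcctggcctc
Cyp1a1: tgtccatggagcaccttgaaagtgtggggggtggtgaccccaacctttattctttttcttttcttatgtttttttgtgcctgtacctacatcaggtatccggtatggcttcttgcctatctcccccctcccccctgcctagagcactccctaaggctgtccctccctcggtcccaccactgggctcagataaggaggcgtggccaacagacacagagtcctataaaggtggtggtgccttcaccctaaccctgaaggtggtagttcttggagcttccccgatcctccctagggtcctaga
The motif occurs in 5.07% of all windows. By gene it occurs in 9.25% of those tested, in 5.32% of genes called at least 2-fold higher and in 1 of the 7 called receptor targets that have a window. Its absence from the Cyp1a1 window says only that these letters are not within these 300 bases.

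Antioxidant and xenobiotic enzymes rose in most cases. Of 35 NRF2 and glutathione genes 27 rose and 1, Gpx2, fell. NRF2 is the transcription factor that answers electrophiles and oxidants. Gsta1, a glutathione transferase, measured 147, 117 and 240.0 CPM in vehicle and 1530, 1402 and 1465 CPM after inhibition, and Gsta4 measured 466, 429.8 and 556 CPM in vehicle and 2409, 2269 and 2415 CPM after inhibition. They rose by 3.19 ± 0.23 and 2.3 ± 0.11, with near-identical copies in the Gsta family. Gclc, the rate-limiting enzyme of glutathione synthesis, changed by 1.17 ± 0.25 (adjusted p 0.012). Its vehicle level was uneven, at 456, 243 and 631 CPM, and the call was lost with only the 6 antral libraries and without a low-count filter (adjusted p up to 0.083). Hmox1, heme oxygenase, did not pass: it had 132, 56.7 and 155 CPM in vehicle and 187, 159 and 193 CPM after inhibition, with line 8026 lowest in vehicle and an adjusted p of 0.12. It passed with limma-voom. The log2 change of Hmox1, 0.76 in the main fit, was 0.41 without line 8026. It was 1.66 without both the line block and vehicle lines 8025 and 8028. Keap1, the NRF2 inhibitor, changed by 0.14 ± 0.051 (adjusted p 0.056), and passed with only the 6 antral libraries. Of 38 other xenobiotic enzymes 34 rose and 1 fell, with a median log2 change of 1.48. Without line 8025 or line 8028 0 fell. Cyp2c65, a P450 enzyme of the gut, went from 4.01, 5.08 and 10.8 to 109.8, 107 and 119 CPM and Cyp2c55 from 0.354, 0.395 and 0.626 to 15.6, 8.58 and 11.4 CPM. Cyp2c66, their neighbour, had 0 counts in vehicle and 49 in the 3 inhibited libraries, at least 14.4-fold higher against a floor of 3 counts over the group. The carboxylesterase gene Ces2a went from 0, 0.0659 and 0.125 to 4.79, 4.37 and 4.07 CPM. The members of these families resemble each other closely, so values of single copies are uncertain.

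Lipid genes rose by smaller amounts. Of 28 cholesterol synthesis and uptake genes 19 rose and 4 fell. Hmgcs1, which feeds the mevalonate pathway, measured 374, 343 and 428 CPM in vehicle and 817, 694 and 765 CPM after inhibition, a rise of 0.99 ± 0.12. Srebf2, the regulator of these genes, changed by 0.11 ± 0.058 (adjusted p 0.14), and passed without both corpus libraries of line 8028. The falls included Abcg1, a sterol exporter, which fell by 1.95 ± 0.22, from 2.95, 2.5 and 3.34 to 0.88, 0.671 and 0.704 CPM. Of 30 fatty acid genes 18 rose and 4 fell, 2 without the block. Cpt1a, the gatekeeper of mitochondrial fatty acid oxidation, went from 54.9, 54.8 and 64.1 to 159.5, 156 and 174 CPM and rose by 1.5 ± 0.054 (adjusted p 1.0e-07). Ehhadh, of peroxisomal oxidation, rose by 1.17 ± 0.15. The desaturase gene Scd2 did not pass, at 0.25 ± 0.12 (adjusted p 0.13), but passed with only the 6 antral libraries.

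Nuclear receptors rose in 13 of 27 cases and fell in 2, or in 0 without the block. Pparg, a regulator of lipid and epithelial differentiation genes, had 57.1, 44.2 and 68.5 CPM in vehicle and 193, 175 and 191 CPM after inhibition, a rise of 1.74 ± 0.10. Nr1h4, the bile acid receptor FXR, rose by 2.07 ± 0.15 from 3.07, 3.59 and 3.55 to 14.3, 16.2 and 12.5 CPM, and Nr1i2, the xenobiotic receptor PXR, by 2.01 ± 0.14 from 4.19, 5.4 and 7.93 to 23.6, 21.1 and 25.4 CPM. Rara, a retinoic acid receptor, changed by 0.18 ± 0.084 (adjusted p 0.11), and passed with only the 6 antral libraries. Of 23 retinoid genes 11 rose and 2 fell. Stra6, the membrane receptor for retinol-binding protein, fell by 3.33 ± 0.10 and Rbp4, the binding protein itself, by 1.02 ± 0.13 from 10.8, 11.4 and 11.7 to 5.25, 5.75 and 5.67 CPM. Rbp7, an intracellular binding protein, rose by 4.37 ± 0.32 from 0.236, 0.0988 and 0.125 to 3.06, 4.03 and 1.96 CPM.

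**Figure D4:**
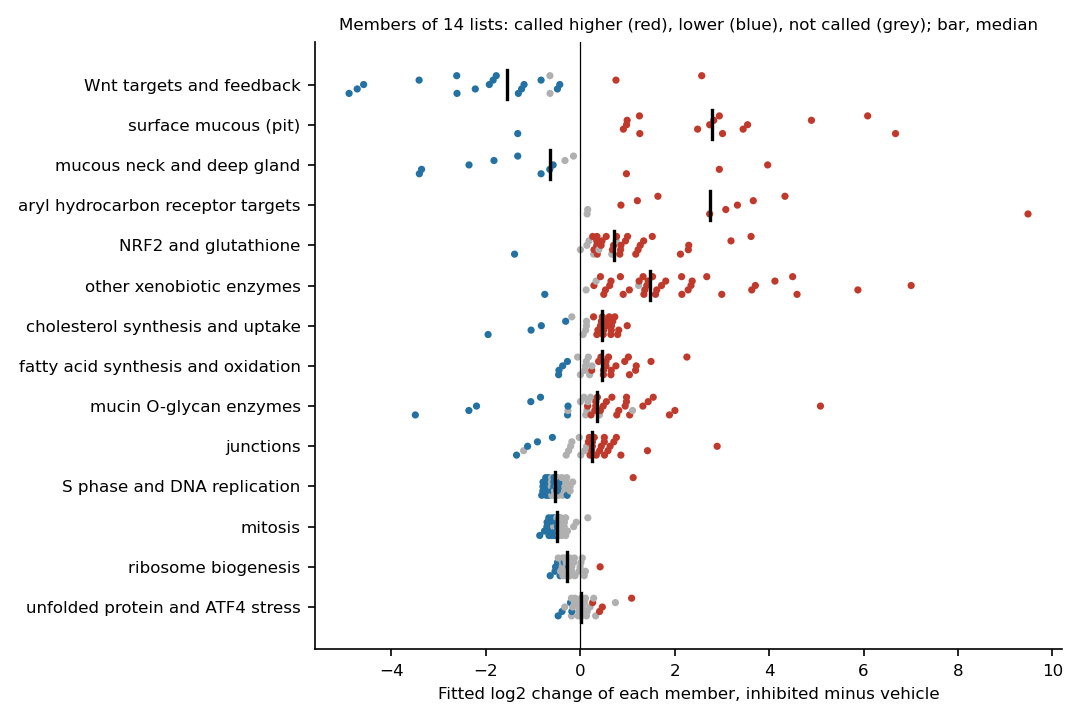
Fitted log2 change (inhibited minus vehicle) of each tested member of 14 lists, red for called higher, blue for called lower, grey for not called, with the list median as a bar. Members of the S phase and mitosis lists lie close together between -0.86 and 0.16, apart from E2f2 at 1.12, while pit, receptor target and xenobiotic genes spread widely above 0.

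Genes of the cell cycle had small, similar changes. Of 45 S phase genes 24 fell and 1 rose, with a median log2 change of -0.53, and of 40 mitosis genes 22 fell and 0 rose, with a median of -0.496. The summed S phase level was 2870, 3510 and 2690 CPM in vehicle and 1830, 2450 and 1940 CPM after inhibition, a decrease of 27.9% to 36.2% within a line, and the summed mitosis level decreased by 23.7% to 33.6%. Line 8026 was the highest on both sides. These calls depended on the pairing of lines. Without the block 2 genes fell in each list. Without line 8025, 8026 or 8028, 4, 4 and 8 S phase genes and 2, 6 and 3 mitosis genes fell, and without both the line block and vehicle lines 8025 and 8028, 0 in each. Without a filter on low counts 8 and 3 fell, with only the 6 antral libraries 42 and 37, and without both corpus libraries of line 8028 41 and 37. Top2a, the mitotic topoisomerase, changed by -0.71 ± 0.18 from 380.2, 437 and 345 to 206, 284 and 223 CPM (adjusted p 0.019, and up to 0.19 where the call was lost), and Pola1, a DNA polymerase subunit, by -0.79 ± 0.15 (adjusted p 0.0042; 0.13 without both the line block and vehicle lines 8025 and 8028). The replication helicase gene Mcm5 changed by -0.62 ± 0.24 (adjusted p 0.091) and the mitotic cyclin gene Ccnb1 by -0.45 ± 0.17 (adjusted p 0.083). Both passed as lower with only the 6 antral libraries and with limma-voom.

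Of 15 cyclin D, CDK4/6 and CDK inhibitor genes 3 rose and 4 fell (20% and 26.7%, near the 20.6% and 20.2% of all genes). Without the block the counts were 1 and 2, and without line 8026 or line 8028 2 and 2. Cdk4, the G1 kinase, fell by 0.82 ± 0.084 (adjusted p 6.0e-05), from 235, 259 and 238 to 138, 144 and 134 CPM. Its partner Ccnd1, often named as a Wnt target, changed by -0.10 ± 0.083 (adjusted p 0.36), at 678, 681 and 601 CPM in vehicle and 611, 608 and 605 CPM after inhibition. Cdkn2b, which blocks Cdk4, rose by 0.84 ± 0.12 from 40.2, 27.7 and 45.2 to 72.6, 60.4 and 66.2 CPM. Of 13 genes of the MYC and MAX network 5 fell, 3 without the block, and 2 rose. Myc, a Wnt target and driver of growth, fell by 0.61 ± 0.084 from 124, 133 and 97.5 to 73.7, 85.8 and 71.4 CPM, and Mycn by 1.02 ± 0.095 from 30, 29.6 and 29.1 to 13.9, 16.1 and 13.7 CPM. Of 38 ribosome biogenesis genes 7 fell (18.4%, against 20.2% of all genes) and 1 rose. The falls numbered 2, 2 and 3 without lines 8025, 8026 and 8028, 2 without the block, 24 without both corpus libraries of line 8028 and 23 with total counts. Their median was -0.289. Npm1, a nucleolar chaperone, changed by -0.54 ± 0.10, a call lost without both the line block and vehicle lines 8025 and 8028 (adjusted p 0.12).

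Of 24 EGF family ligand, receptor and feedback genes 12 rose and 5 fell, 3 without line 8026. The ligand gene Ereg had 8.91, 9.39 and 7.93 CPM in vehicle and 34.5, 32.8 and 32.6 CPM after inhibition, and Areg had 108, 98.8 and 91.5 and 294, 309 and 278 CPM. They rose by 1.93 ± 0.19 and 1.56 ± 0.088. Lrig1, a brake on EGF receptors and a stem cell marker, fell by 1.2 ± 0.07 from 224, 228 and 238 to 94.7, 104 and 102 CPM, and Etv5, an ETS factor downstream of receptor kinases, by 1.90 ± 0.13 from 61.9, 59.9 and 62.9 to 13.4, 19.2 and 17.3 CPM. Of 21 YAP target and regenerative genes 7 rose and 10 fell, with 6 falls without line 8028 or without the block. The direct YAP targets Ccn2 and Ccn1 fell by 1.92 ± 0.068 and 1.21 ± 0.082. Ccn2 measured 373, 276 and 278 CPM in vehicle and 95.7, 77.2 and 71 CPM after inhibition. The list's rises were led by Ereg, Areg and Il1rn, the interleukin-1 receptor antagonist, which rose by 1.59 ± 0.07. Of 15 Notch genes 7 fell and 1 rose, with 4 falls without line 8028 and 0 rises without the block or any 1 line. Lfng, which modifies Notch, fell by 1.26 ± 0.19 and Hes6 by 0.99 ± 0.072. The Notch target Hes1 changed by 0.10 ± 0.056 (adjusted p 0.18). Of 16 Eph and ephrin genes 5 rose and 6 fell (31.2% and 37.5%). Efna4 and Efna3, ligand genes, fell by 1.61 ± 0.10 and 1.6 ± 0.11, and Efnb1 rose by 0.68 ± 0.052. Of 19 AP-1 and immediate early genes 8 rose and 2 fell, with 5 rises without line 8025 or line 8026 and 4 without the block. Egr3, an early growth response factor, fell by 2.04 ± 0.41, and Zfp36, which destabilises inflammatory mRNAs, rose by 0.68 ± 0.072.

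Bone morphogenetic proteins (BMPs), which Noggin blocks, signal through SMAD factors. Of 14 BMP genes tested 2 rose and 4 fell (14.3% and 28.6%), with 1 and 3 without the block, without line 8025 and without line 8028. Id3, a BMP target, fell by 0.95 ± 0.10 from 19.2, 20.2 and 17.7 to 8.55, 12.1 and 9.15 CPM, while Id1, another, changed by -0.064 ± 0.069 (adjusted p 0.49). The vehicle medium also holds Noggin, at a level that is not stated.

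Transport genes moved both ways. Of 35 ion transport genes 15 rose and 10 fell. Cftr, the chloride channel of secreting cells, fell by 1.6 ± 0.17 from 72.1, 44.6 and 36.7 to 24.7, 15.7 and 10.8 CPM, and Slc12a2, the basolateral chloride loader, by 0.87 ± 0.10 from 440.4, 441 and 403 to 238, 241 and 224 CPM. Kcne3, a potassium channel subunit that works with them, fell by 2.98 ± 0.44, and the water channel Aqp1 by 3.45 ± 0.36. Car2, the cytosolic carbonic anhydrase, rose by 1.42 ± 0.12 from 411, 305 and 469 to 1080, 1002 and 1032 CPM, and Slc26a9, a surface anion transporter, by 0.53 ± 0.10. Of 33 junction genes 20 rose and 4 fell. Gjb1, a gap junction connexin, rose by 2.90 ± 0.16 from 14.2, 11.4 and 19.5 to 119.6, 102 and 109.7 CPM, while Gja1, another connexin, fell by 1.35 ± 0.12 from 41.2, 46.2 and 47.5 to 15.8, 17.2 and 20 CPM. Cldn4, a tight junction claudin, fell by 0.91 ± 0.079. Cldn2, a pore claudin, had 171, 149 and 135 CPM in vehicle and 79.1, 62 and 57.7 CPM after inhibition. Its groups did not overlap, but it did not pass (log2 change -1.2 ± 0.40, adjusted p 0.071). It passed as lower with only the 6 antral libraries and with limma-voom. Of 37 matrix and protease genes 13 rose (35.1%) and 12 fell (32.4%), with 7 falls without the block. Plaur, the urokinase receptor, rose by 1.33 ± 0.08 from 114, 103 and 96.3 to 260.2, 280.2 and 247 CPM, and Mmp7, matrilysin, fell by 3.66 ± 0.51.

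Interferon and antigen presentation genes moved both ways, with a median log2 change of 0.0249. Of 34 interferon and antigen presentation genes 8 rose and 14 fell, numbers that went to 4 and 6, 3 and 9, and 7 and 7 without lines 8025, 8026 and 8028, and to 7 and 9 without the block. Oasl1, an antiviral gene, rose by 2.04 ± 0.15 from 14.5, 12.8 and 16 to 59.6, 68.9 and 49.9 CPM. Ifit2, another, fell by 1.81 ± 0.30. Of 27 mucosal defence genes 11 rose and 5 fell, and the falls numbered 3 without line 8026 and 0 without the block. Il18, an epithelial cytokine, rose by 1.98 ± 0.12 from 7.43, 9.85 and 9.6 to 37.4, 37.3 and 31.9 CPM, and Ccl28, a mucosal chemokine, by 2.71 ± 0.18. Of 30 unfolded protein and ATF4 genes 4 rose and 4 fell (13.3% each), below the shares of all genes. The chaperone gene Hspa5 changed by 0.11 ± 0.068 (adjusted p 0.23). Ern2, the stress sensor of mucous cells, rose by 1.09 ± 0.086 from 67.7, 68.8 and 65.8 to 142, 132 and 155 CPM. Without lines 8025, 8026 and 8028 these counts were 4 and 0, 1 and 1, and 5 and 2. Of 24 cell death and p53 genes 4 rose and 9 fell (16.7% and 37.5%), with 5 falls without line 8025 or line 8028. Gsdmd, which forms the pore of pyroptosis, rose by 0.92 ± 0.094, and Bcl2, a survival gene, fell by 1.04 ± 0.12 from 29.4, 30.9 and 30.9 to 14.6, 14.9 and 14.9 CPM. Of 33 glycolysis and hypoxia genes 13 rose and 2 fell, with 5 rises without line 8025 or line 8026 and 7 without the block. Ndrg1, a stress and differentiation gene, rose by 1.09 ± 0.15, and Ldhb, a lactate dehydrogenase subunit, fell by 1.99 ± 0.12. Of 22 amino acid transporters 8 rose, 5 without any 1 line, and 5 fell. Slc6a20a, which carries proline, rose by 2.47 ± 0.18, and Slc1a1, a glutamate transporter, fell by 2.69 ± 0.23.

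The cultures were epithelial on their markers. Cdh1, Epcam, Krt8 and Cldn18 were high in all 6 libraries, and Pdx1 and Nkx6-3, antral factors, were present. Of 24 marker genes of mesenchyme, immune and endothelial cells 8 passed the filter on low counts, with a summed level of 13.1 to 32.4 CPM in vehicle and 19.7 to 30.2 CPM after inhibition. Col3a1, Dcn and Adgre1 were at 0 counts in all 6 libraries. Of the 8, Vim, Col1a1 and Vwf fell and Ptprc, a leukocyte marker, rose, with log2 changes of -2.68, -1.74, -1.16 and 1.6. Col1a1 rested on 18 to 21 counts a library in vehicle and 6 to 7 after inhibition. Without line 8025 1 fell and 0 rose, and without line 8028 0 rose. The part of such cells in the falls of matrix genes was not tested.

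Against corpus, 7 genes (0.0433% of those tested) differed in their response by the interaction term, each with the antral change above the corpus change. Akr1c14, an aldo-keto reductase, went from 2, 2.93 and 2.88 to 28, 36.5 and 32.8 CPM in antrum, a log2 change of 3.63 ± 0.13 against 1.36 ± 0.11 in corpus. Gstm3, Gstm1 and Gstm2, glutathione transferases of 1 cluster with similar sequences, changed by 3.62 ± 0.076, 2.29 ± 0.074 and 1.34 ± 0.06 in antrum and by 2.39 ± 0.071, 1.5 ± 0.072 and 0.68 ± 0.059 in corpus. Adh1, an alcohol dehydrogenase that also oxidises retinol, did not pass in antrum (0.061 ± 0.11, adjusted p 0.69) and fell in corpus (-1.27 ± 0.11). The count was 176 without both corpus libraries of line 8028 and 1 without the line block. For the other genes tested no difference between regions was shown, which is not evidence that the responses are equal. Region and serum cannot be told apart.

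**Figure D5:**
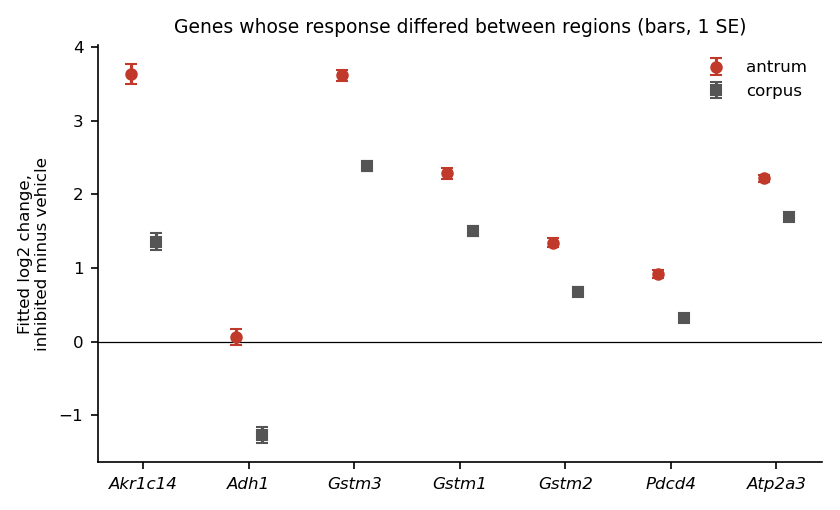
Fitted log2 change (inhibited minus vehicle) in antrum (circles) and corpus (squares) of the 7 genes whose response differed between regions, with bars of 1 SE. Each antral value lies above the corpus value, from 2.27 apart for Akr1c14 to 0.52 for Atp2a3.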

How the data were processed

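Poly(A) RNA of 12 organoid libraries was sequenced. The deposited values are RSEM expected counts per gene, whole numbers as deposited, per the file headers. Per the submitters' processing notes, the authors used STAR 2.7.8a and RSEM 1.3.3 with GRCm38, beside cutadapt 2.3 and FastQC 0.11.8. Neither the annotation release nor the strand setting is given in the sources used here, and reads of antisense or overlapping genes may therefore be shared. Of 55426 rows, 5 transgene rows were left out, and filterByExpr kept 16152 of 55421 genes. Of these IDs 16134 matched the GENCODE vM21 names used for positions.

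The fit was edgeR 4.0.16 (R 4.3.3), with TMM scaling and the robust quasi-likelihood test, on all 12 libraries. It held a block for each line within its region and a treatment term per region, which left 4 residual degrees of freedom. Each test was two-sided, with a Benjamini-Hochberg adjusted p below 0.05 as the call, and the script was first tested on simulated data. A standard error is the log2 change divided by the square root of F. The line numbers pair the samples: each line was cultured under both treatments, per the labels, and deviations from group means correlated at 0.400, 0.566 and 0.426 within antral lines and at -0.412 to 0.0406 across them. No 2 antral libraries of 1 group agreed within sampling noise. With 3 lines a group, precision is set by how far the lines differ in their response, pooled over both regions. Alternatives used limma 3.58.1 (voom), DESeq2 1.42.0, other scalings and filters, no block and libraries left out.

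The comparison, the 45 gene lists and the naming rule were chosen with earlier results of these data known. The rule took the 14 largest changes each way among called genes with at least 5 CPM and 1 direction in all lines, the 8 largest gains and losses in CPM, genes switched on or off, the 6 with the widest spread between lines, up to 4 called members of each list each way, and the 5 largest region differences. It named 292 genes. The other 30 were chosen after their values were seen: Pdcd4, Atp2a3, Sp5, Rnf43, Znrf3, Ascl2, Sox9, Ctse, Psca, Anxa10, Cftr, Slc12a2, Gclc and the genes described as not passing. Promoter sequences are from RefSeq (GRCm38.p6), and a script searched their letters. A floor is 3 counts, and it covers counting error only.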

Additional observations from a re-analysis of the deposited data

Results flagged for a closer look

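The response of 7 genes differed between antrum and corpus by the interaction term of the same fit, each with the antral change above the corpus change. The largest difference was of Akr1c14, at 2.27 ± 0.17 on the log2 scale (SE; adjusted p 0.0019 in edgeR's quasi-likelihood test). Adh1 differed by 1.33 ± 0.16 (adjusted p 0.045): it changed by 0.061 ± 0.11 in antrum and by -1.27 ± 0.11 in corpus. Gstm3, Gstm1 and Gstm2 rose in both regions and differed by 1.23 ± 0.10, 0.78 ± 0.10 and 0.66 ± 0.083 (adjusted p 0.0019, 0.045 and 0.045). Pdcd4, a translation inhibitor, differed by 0.59 ± 0.077 (adjusted p 0.045), with changes of 0.92 ± 0.055 in antrum and 0.33 ± 0.054 in corpus. Atp2a3, a calcium pump, differed by 0.52 ± 0.068 (adjusted p 0.045), with changes of 2.22 ± 0.05 and 1.70 ± 0.049. Serum differs between the regions' media, and its part cannot be told apart from that of region.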

How the results depend on the processing

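The line block carried the pairing: without it 2636 genes were higher and 2158 lower, against 3333 and 3261 with it, and 1 gene differed between regions. Leaving out 1 line at a time gave 2268 to 2893 higher, 1823 to 2286 lower and 3 to 8 region differences. Without vehicle lines 8025 and 8028, chosen for their rRNA-like counts, and without the block, 1837 were higher and 903 lower. Region differences numbered 4 with RLE scaling, 3 with upper quartile, 82 with total counts, 79 without a low-count filter, 2 with limma-voom, 57 with DESeq2 and 176 without both corpus libraries of line 8028. That last count, and all counts of list members under the alternatives, were chosen after seeing the data. Scaling moved the balance of calls: upper quartile gave 2848 higher and 4162 lower, and total counts 2372 and 3857. Turned signs were those of Tnks (-0.042 with upper quartile, -0.056 with total counts, -0.0032 without line 8026, within -0.0032 to 0.051 over the lines left out), Adh1 (-0.0045 with total counts) and Xbp1, a secretory stress factor gene called lower at -0.18 (0.012 without both the line block and vehicle lines 8025 and 8028). Of 304 called genes among the 322 named, 190 passed in all 16 alternatives, and of the rest the cause of each loss was not tested. Of the named genes that did not pass, 9 passed with only the 6 antral libraries and the block, and 9 without both corpus libraries of line 8028. Below 1 CPM the median standard error was 0.429, which limits what can be called there.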

Other observations

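The line-wise changes spread most, among called genes with at least 5 CPM, for Prl2c2, Gkn2, Aqp3, Cblif, Muc5ac and Khdc1a. Prl2c2, of the prolactin family with close copies, had 2.95, 0.362 and 9.85 CPM in vehicle and 32.9, 21.6 and 22.8 CPM after inhibition, and Khdc1a had 30, 99.2 and 58.3 CPM in vehicle and 2.92, 33.8 and 4.85 CPM after inhibition. The call of Prl2c2 (adjusted p 0.047) was lost in 7 alternatives, among them without line 8025 and without line 8026 (adjusted p up to 0.17), and its log2 change of 2.82 ± 0.79 was 4.32 without line 8028. The call of Khdc1a (adjusted p 0.011) was lost in 4, among them without the block (adjusted p up to 0.19). For Gkn2, Aqp3, Cblif and Muc5ac the level after inhibition was lowest in line 8028.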
